A study of Homo sapiens with 12 samples.

Results

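The 9 genes described here encode aromatase and enzymes that interconvert, sulfate and desulfate estrogens. They were taken from the count table by symbol: CYP19A1, STS, HSD17B1, HSD17B4, HSD17B8, HSD17B11, HSD17B12, HSD17B14 and SULT1A1, which are 9 of the 25370 genes in the table. T47D, an established estrogen receptor-positive line from a human breast carcinoma, was kept in medium with 5% charcoal-stripped serum for 48 h and then without serum for 24 h, in all 4 groups. The cells then received vehicle, 10 nM anastrozole (a nonsteroidal aromatase inhibitor), 0.1 nM E2 (17β-estradiol), or both agents at these doses, with 3 RNA-seq libraries per group. The sample labels give 12 h of treatment and the study's methods 24 h. CYP19A1 was below detection in all 12 libraries, HSD17B11 lay at the limit of detection, and the other 7 genes were detected in every library. Of these, HSD17B12 was 1.202-fold higher and HSD17B1 0.778-fold as high in E2-treated cells as in vehicle-treated cells. The same genes moved in the same directions with anastrozole plus E2. For HSD17B1 this second difference passed its test in only 5 of 9 alternative fits and 2 of 6 fits without 1 library. With an offset for GC content the E2 difference of HSD17B1 was -0.22 on the log2 scale, against -0.36 without it.

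Estrogens are made from androgens by aromatase, which converts androstenedione to estrone and testosterone to estradiol. Breast tissue can also draw on circulating estrone sulfate, which steroid sulfatase (STS) hydrolyses to estrone and sulfotransferases such as SULT1A1 form again. The 17β-hydroxysteroid dehydrogenases set the balance of weak estrone and potent estradiol: HSD17B1 reduces estrone to estradiol, and HSD17B4, HSD17B8, HSD17B11 and HSD17B14 have been described as oxidising 17β-hydroxysteroids. Several of them have main tasks outside steroid metabolism, such as fatty acid elongation (HSD17B12), peroxisomal β-oxidation (HSD17B4) and mitochondrial fatty acid synthesis (HSD17B8).

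The libraries held 9914253 to 17009776 counts on genes (median 13538621), and 32.7% to 33.5% of all reads were assigned to genes. Levels are CPM, a gene's counts relative to the library total after scaling by the trimmed mean of M-values (TMM). Fold changes are log2 values fitted with edgeR (quasi-likelihood), whose p-values were adjusted over 21132 genes by the Benjamini-Hochberg method, and a gene was called at an adjusted p under 0.05. All 8 luminal markers (such as ESR1, GATA3 and KRT8) exceeded a mean of 1 CPM, with sums of 10530 to 11660 CPM per library; 4 of them were called lower with E2 and 1 with anastrozole (medians -0.08 and -0.04), and 0 with the combination (3 at an unadjusted p under 0.05). Of 5 adipocyte markers, FABP4 and LPL had 0 counts in every library, and 1 exceeded a mean of 1 CPM, with sums of 1.445 to 2.878 CPM. Of 7 stromal markers 2 did, with sums of 81.2 to 101.9 CPM carried by COL1A1, while COL1A2, COL3A1 and PDGFRA were each at 0 in at least 1 group. Of 4 basal markers 2 exceeded 1 CPM, of 3 endothelial markers 0 and of 4 immune markers 1, with sums of at most 14.4, 0.622 and 7.501 CPM per library; 1 immune marker was called higher with anastrozole and with E2 and 1 basal marker with the combination, and their part in the results was not tested. In bulk RNA, fewer cells of a type and less RNA per cell cannot be told apart. Of 10 known estrogen-responsive genes 2 rose and 1 fell with E2, 4 rose and 0 fell with the combination, and 0 rose and 3 fell with anastrozole (medians 0.09, 0.11 and -0.09). Of all genes 6.06% were called higher and 5.95% lower with E2, 2.71% and 2.33% with the combination, and 1.4% and 2.27% with anastrozole. The counts of the lists below have the same reference. GREB1 was 508.3, 532.0 and 525.0 CPM with vehicle and 565.0, 580.1 and 564.2 CPM with E2, without overlap (log2 fold change 0.13, adjusted p = 7.3e-04 by edgeR's quasi-likelihood test), and the lysosomal protease CTSD fell by 0.10 (adjusted p = 0.0092), a difference that was 0.03 with an offset for GC content and not called. TFF1, a classical target, had only 63 counts over the 3 vehicle libraries and 78 over the 3 E2 libraries. Its log2 fold change was 0.10 (SE 0.28, adjusted p = 0.90 by edgeR's quasi-likelihood test). TFF1 is named here after its values were seen. Across 10848 genes the log2 fold changes followed transcript GC content, with Spearman's rho of -0.547 for anastrozole, -0.561 for E2 and -0.034 for the combination, each against vehicle, and of 0.116 for anastrozole against E2, 0.694 for the combination against E2 and 0.578 for the combination against anastrozole; these genes share libraries and are not independent.

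CYP19A1 (chromosome 15, 51500254 to 51630798, minus strand, GRCh37) is transcribed from several alternative first exons, which are used in different tissues. Of 7 start sites in RefSeq (GRCh38.p14), the one farthest downstream and the one farthest upstream are shown because their 250 upstream bases held hormone receptor motifs. Capitals mark matches on either strand of the NR5A site CAAGGTCA, bound by steroidogenic factor 1 (NR5A1) and its relative NR5A2, or of the estrogen response half-site AGGTCA, which the NR5A site contains. The start of STS that held a half-site is added for comparison.
CYP19A1, chr15:51243030-51243279, minus strand: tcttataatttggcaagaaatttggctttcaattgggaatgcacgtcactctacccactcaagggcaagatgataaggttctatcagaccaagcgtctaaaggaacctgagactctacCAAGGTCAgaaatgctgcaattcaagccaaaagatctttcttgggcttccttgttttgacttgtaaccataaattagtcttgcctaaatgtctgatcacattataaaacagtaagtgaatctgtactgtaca
CYP19A1, chr15:51318498-51318747, minus strand: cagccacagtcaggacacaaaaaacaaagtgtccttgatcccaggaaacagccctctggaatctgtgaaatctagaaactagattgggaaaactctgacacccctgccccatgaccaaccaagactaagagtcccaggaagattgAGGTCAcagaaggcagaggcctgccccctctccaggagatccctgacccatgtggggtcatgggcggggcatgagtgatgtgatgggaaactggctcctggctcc
STS, chrX:7251994-7252243, plus strand: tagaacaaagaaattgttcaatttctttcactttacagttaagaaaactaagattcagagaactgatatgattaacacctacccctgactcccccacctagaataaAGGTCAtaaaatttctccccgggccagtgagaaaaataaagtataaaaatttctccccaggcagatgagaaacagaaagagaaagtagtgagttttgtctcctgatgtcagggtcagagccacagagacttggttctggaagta
The NR5A site began 132 bases before the downstream start of CYP19A1. This motif was in 1.14% of 34943 promoter windows of the same length, the half-site in 12.1% and the full estrogen response element (GGTCA, any 3 bases, TGACC) in 0.0401%. None of the 15 windows of CYP19A1, STS, HSD17B4, HSD17B8 and HSD17B11 in the table held the full element, and none held the cAMP response element TGACGTCA (1.63% of all windows). The half-site was in 2 of the 7 CYP19A1 windows and 1 of the 5 STS windows.

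The 9 genes differed widely in level per kb of transcript. Averaged over 12 libraries, HSD17B4 stood at 71.96 CPM per kb, followed by HSD17B12 (50.1), HSD17B8 (38.9), HSD17B1 (28.7), SULT1A1 (19.7), STS (1.86), HSD17B14 (1.11), HSD17B11 (0.102) and CYP19A1 (0.006). The order of the 7 detected genes was identical in 10 of the 12 libraries, and in replicate b of both the anastrozole and the E2 group STS and HSD17B14 changed places. The spreads of STS and HSD17B14 therefore overlapped, whereas the 5 genes above them kept their places in every library. HSD17B4 per kb was at least 1071-fold higher than 3 counts of CYP19A1 per kb would have been in the same library, the smallest value among the 12 libraries.

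**Figure D1:**
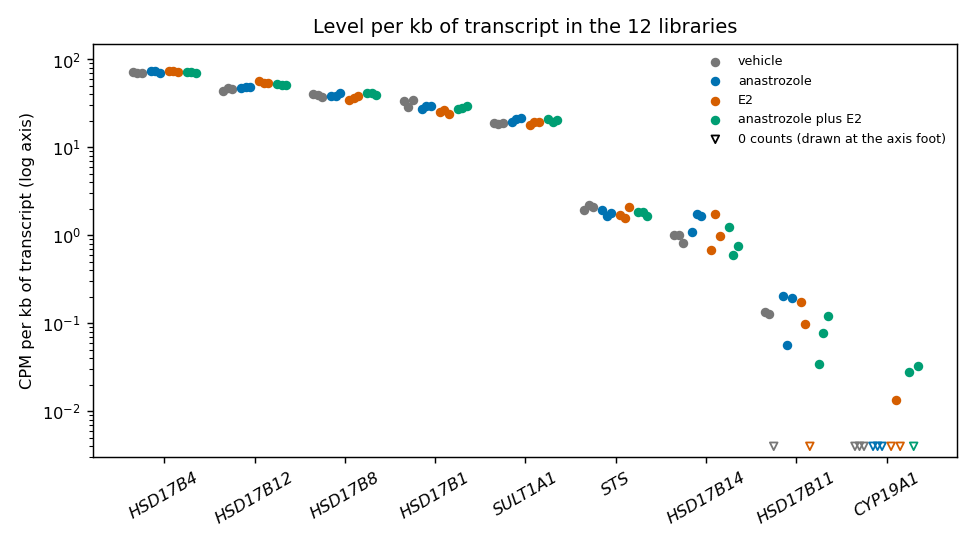
Level per kb of transcript (CPM per kb, log axis) of the 9 genes, 1 point per library, coloured by group; open triangles at the foot of the axis are libraries with 0 counts. The means run from 71.96 (HSD17B4) to 19.7 (SULT1A1) CPM per kb in the 5 most abundant genes, then drop to 1.86 (STS) and 1.11 (HSD17B14), with HSD17B11 and CYP19A1 far below.

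CYP19A1, the target of anastrozole, was not detectable at this depth. It had 0 counts in the 3 vehicle and the 3 anastrozole libraries, 1 count in the E2 library b, and 2 counts each in the libraries a and c of anastrozole plus E2. The total was 5 counts over 12 libraries, every library was under 3 counts, and 9 had none. The floor of 3 counts lay between 0.177 and 0.303 CPM, so that no fold change of CYP19A1 between groups can be given. No window of 100 bases of its transcript occurred exactly in another gene.

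Genes around CYP19A1 were read off the same fits. Of 9 listed regulators of its promoters, 8 had counts and 6 exceeded a mean of 1 CPM, and none was called by edgeR in the 3 comparisons with vehicle, while 2, 3 and 1 had an unadjusted p under 0.05 (medians of the list 0.05 with anastrozole, 0.07 with E2 and 0.00 with the combination, against 0 over all genes). NR5A1 had 1, 7, 2 and 1 counts in the vehicle, anastrozole, E2 and combination groups, of which 6 fell in a single library (anastrozole b, at 0.61 CPM). Its relative NR5A2 was expressed at 17.1, 16.96 and 19.9 CPM with vehicle and 20.4, 19.97 and 21.9 CPM with E2, a log2 difference of 0.21 (adjusted p = 0.13 by edgeR's quasi-likelihood test). Upstream of aromatase, 7 of 13 genes of precursor steroid synthesis exceeded 1 CPM. CYP17A1, which makes androgens from C21 steroids, had 9 to 15 counts per group, and HSD3B1, which completes androstenedione, had 0 counts in all libraries. The only call in that list against vehicle was FDXR, the reductase that feeds electrons to mitochondrial P450 enzymes, which was 54.4, 47.2 and 55.5 CPM with vehicle and 46.1, 47.3 and 45.7 CPM with E2 (log2 fold change -0.17, adjusted p = 0.023); with an offset for GC content it was -0.04 and not called, and the call was also lost without the E2 library a or c or the vehicle library a or c (range over all such fits -0.25 to -0.13).

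STS (chromosome X, 7065278 to 7772399, plus strand) was detected at a low level. Vehicle libraries held 13.0, 14.8 and 13.8 CPM, anastrozole libraries 12.8, 10.9 and 11.9 CPM, E2 libraries 11.2, 10.5 and 13.7 CPM, and combination libraries 12.1, 12.1 and 10.9 CPM. All anastrozole and combination libraries lay below all vehicle libraries, whereas the E2 library c lay within the vehicle range. The log2 fold changes were -0.22 with anastrozole (SE 0.11, adjusted p = 0.34), -0.24 with E2 (SE 0.11, adjusted p = 0.15) and -0.25 with the combination (SE 0.10, adjusted p = 0.15), and none passed the threshold of edgeR's test. In fits without 1 library the E2 difference ran from -0.36, called without the E2 library c (adjusted p = 0.038), to -0.15 without the E2 library b (adjusted p = 0.55), and it was called in no other of these fits. Between the treatments STS differed by at most 0.03 on the log2 scale, with a 95% interval from -0.21 to 0.19 for the combination against E2.

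SULT1A1 (chromosome 16, 28616517 to 28625600, minus strand) encodes a phenol sulfotransferase that also sulfates estrogens. It was 29.7, 29.2 and 30.03 CPM with vehicle, 30.4, 33.0 and 34.03 CPM under anastrozole, 28.0, 30.5 and 30.5 CPM with E2, and 33.1, 30.6 and 31.96 CPM with the combination. The anastrozole and combination libraries all lay above the vehicle libraries, by log2 fold changes of 0.13 (adjusted p = 0.49) and 0.11 (adjusted p = 0.52), and neither was called by edgeR. The E2 difference was 0.01, with a 95% interval from -0.13 to 0.14. Of all windows of 100 bases in its transcript, 10.2% occurred exactly in SULT1A2, SULT1A3 or SULT1A4 or their read-through transcripts, SULT1A3 and SULT1A4 had 0 counts in every library, and 6.60% to 7.40% of reads were set aside as not uniquely aligned, so that the level of SULT1A1 is uncertain. Genes without a symbol on the same strand cover 17.5% and 5.65% of its exon bases, and their part in its counts was not tested.

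Of 12 other genes of sulfation and desulfation 9 had counts. By edgeR 0 rose and 0 fell with anastrozole (1 at an unadjusted p under 0.05), 0 rose and 2 fell with E2, and 0 rose and 1 fell with the combination. The shares of all genes called lower were 2.27% with anastrozole, 5.95% with E2 and 2.33% with the combination. SULT1E1, the high-affinity estrogen sulfotransferase, had 3 counts in all, in the anastrozole group. SLC35B2, which carries the sulfate donor into the Golgi, was 111.3, 110.4 and 113.7 CPM with vehicle and 97.9, 106.1 and 99.1 CPM with E2 (log2 fold change -0.14, adjusted p = 0.012), and SUMF2, a relative of the factor that activates sulfatases, fell by 0.10 (adjusted p = 0.025, edgeR). Neither passed with an offset for GC content (-0.07 and -0.06), nor without the E2 library a, and the calls were each lost without other libraries too (SLC35B2 without E2 c or vehicle c, -0.18 to -0.12 over such fits; SUMF2 without E2 b, vehicle a or vehicle c, -0.12 to -0.07). SLC35B3, a similar carrier, fell with the combination by 0.26 on the log2 scale (adjusted p = 0.0496, edgeR), a call lost without the combination library b or c or the vehicle library b or c (-0.30 to -0.19).

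HSD17B1 (chromosome 17, 40704940 to 40707232, plus strand) was lower in E2-treated cells. Its levels were 42.9, 36.4 and 44.7 CPM with vehicle and 31.9, 33.7 and 30.5 CPM with E2. The groups did not overlap, although the vehicle library b lay nearer to the E2 libraries than to the other vehicle libraries. The log2 fold change was -0.36 (SE 0.06, 95% interval -0.49 to -0.24, adjusted p = 9.1e-07 by edgeR's quasi-likelihood test), and it was called in all 9 alternatives and in all 6 fits without 1 library, where it ranged from -0.45 to -0.30. HSD17B1 has a GC content of 64.2%, and the 789 genes within 2 percentage points of it had a median log2 fold change of -0.14 in the same comparison, of which 35.6% were called in either direction. With an offset for GC content the fall was 0.22 on the log2 scale and still called (adjusted p = 0.0061). Of the exon bases of HSD17B1, 80.9% lie opposite exons of the antisense gene HSD17B1-AS1; without a stated strand setting, reads of these genes cannot be told apart.

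With anastrozole HSD17B1 was 35.0, 37.5 and 37.7 CPM, and with the combination 34.8, 35.6 and 37.7 CPM, so that both groups lay below the vehicle libraries a and c and overlapped the vehicle library b. The log2 fold change was -0.17 with anastrozole (SE 0.07, adjusted p = 0.20) and -0.20 with the combination (SE 0.06, adjusted p = 0.038). These were -0.04 with the GC offset (adjusted p = 0.90) and -0.18 (adjusted p = 0.047). The call with the combination was lost with the DESeq2 test, limma-voom, filterByExpr and the fit on 12 libraries, and without the combination library a (-0.17), the combination library b (-0.19), the vehicle library a (-0.17) or the vehicle library c (-0.13).

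HSD17B12 (chromosome 11, 43702230 to 43878167, plus strand) was higher in E2-treated cells. It encodes the 3-ketoacyl-CoA reductase of very long chain fatty acid elongation, which has also been described as reducing estrone. Vehicle libraries held 103.6, 112.5 and 111.6 CPM, E2 libraries 136.9, 129.0 and 128.6 CPM, combination libraries 126.8, 121.4 and 122.2 CPM, and anastrozole libraries 113.7, 117.9 and 116.5 CPM. The 4 groups formed 4 ranges without overlap, in the order vehicle, anastrozole, combination and E2. The log2 fold change against vehicle was 0.27 with E2 (SE 0.04, 95% interval 0.18 to 0.35, adjusted p = 2.0e-08 by edgeR), 0.18 with the combination (SE 0.04, adjusted p = 0.0020) and 0.09 with anastrozole (SE 0.05, adjusted p = 0.46, not called).

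The E2 call of HSD17B12 was kept in all 9 alternatives and 6 of 6 fits without 1 library (0.23 to 0.29). The combination call was kept in all but limma-voom (adjusted p = 0.084), also in each of 6 fits without 1 library. HSD17B12 has a GC content of 38.5%, and the 1715 genes within 2 percentage points had a median log2 fold change of 0.08 with E2 and -0.00475 with the combination. Of those genes 25% were called in either direction with E2 and 6.53% with the combination. With the GC offset the E2 difference was 0.18 (adjusted p = 1.6e-04) and that with the combination also 0.18 (adjusted p = 4.0e-04), while that with anastrozole was 0.02 (adjusted p = 0.92), and HSD17B12 then differed by -0.00024 between the combination and E2. Antisense genes without a symbol cover 12.3% and 3.75% of its exon bases and a gene on the same strand 6.35%, and their part in its counts was not tested.

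The ratio of HSD17B12 to HSD17B1 per kb, within each library, was 1.42 ± 0.19 with vehicle, 1.68 ± 0.04 with anastrozole, 2.19 ± 0.13 with E2 and 1.82 ± 0.11 with the combination (SD, n = 3). The E2 libraries, at 2.03 to 2.29, lay above all other libraries, of which the highest was 1.94. Both genes were called with E2, in opposite directions, so this separation follows from their levels given above and is no further test. These ratios are not adjusted for GC content, which differs between the genes; with the GC offset the combination differed from E2 by -0.00024 in HSD17B12 and by 0.04 in HSD17B1 on the log2 scale, against -0.09 and 0.17 without it.

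**Figure D2:**
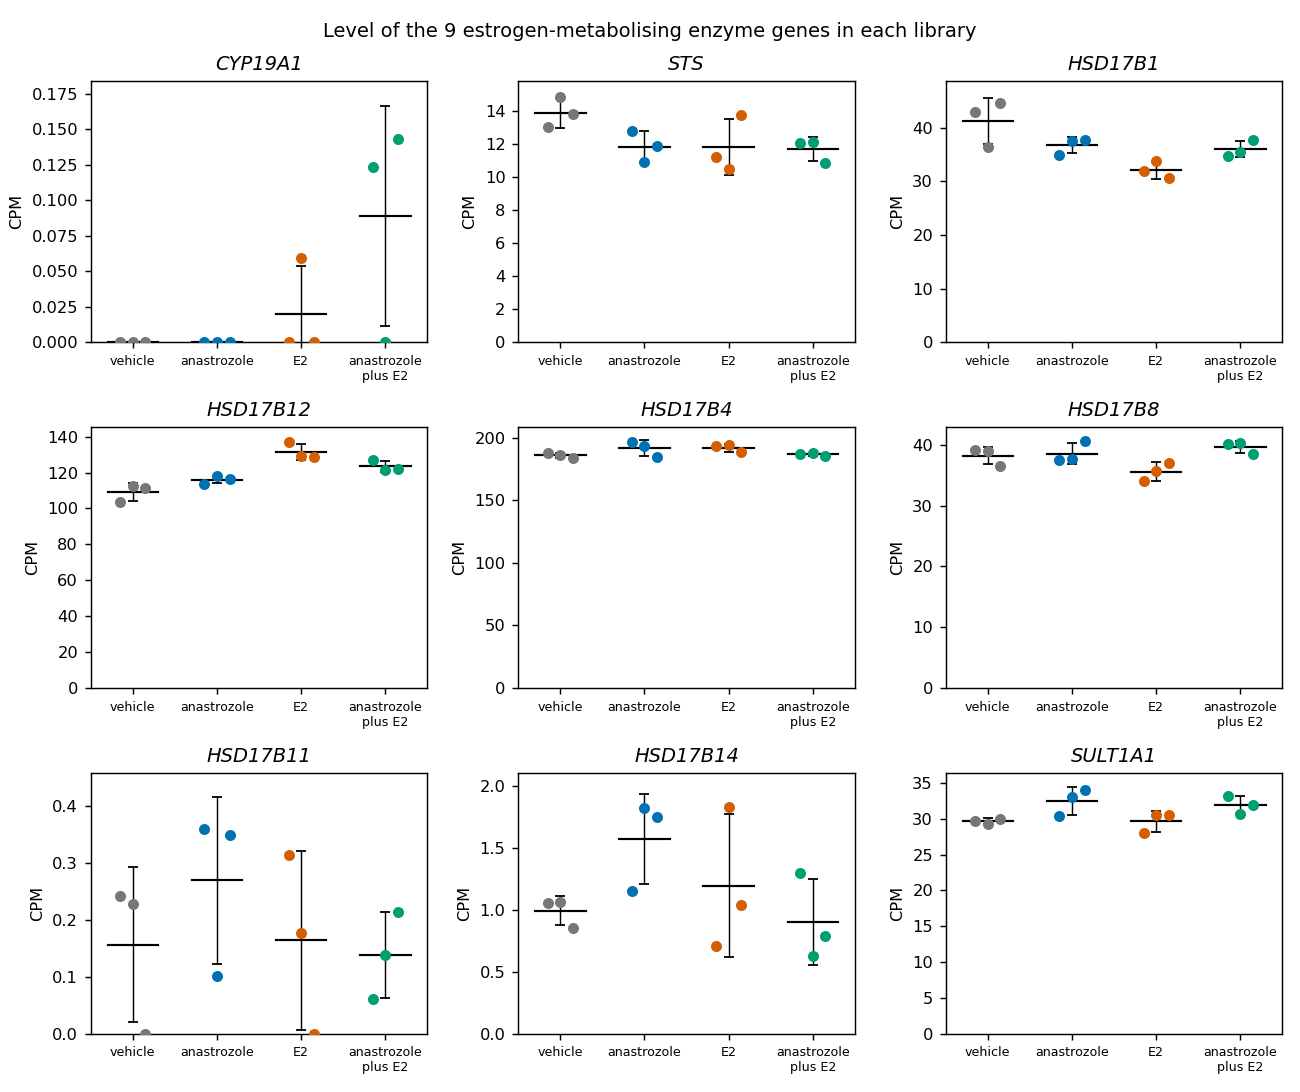
Level of each of the 9 genes (CPM, axis from 0) in the 3 libraries of each group, with the group mean (line) and SD (bar). HSD17B12 is highest and HSD17B1 lowest with E2 (means 131.5 and 32.045 CPM against 109.2 and 41.3 CPM with vehicle), and CYP19A1 and HSD17B11 rest on a few counts.

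HSD17B4 (chromosome 5, 118788160 to 118972894, plus strand), a peroxisomal enzyme that oxidises estradiol and acts in β-oxidation, was the most abundant of the 9 genes. It was 187.7, 186.4 and 183.6 CPM with vehicle, 196.8, 193.8 and 184.5 CPM under anastrozole, 193.1, 194.5 and 188.6 CPM with E2, and 187.2, 187.5 and 185.6 CPM with the combination. E2 libraries lay above vehicle libraries by 0.05 on the log2 scale, a difference that was not called and was -0.0071 with the GC offset. The 95% intervals of its log2 fold changes against vehicle were -0.05 to 0.14 with anastrozole, -0.02 to 0.12 with E2 and -0.07 to 0.08 with the combination.

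HSD17B8 (chromosome 6, 33172432 to 33174608, plus strand) encodes a dehydrogenase that prefers estradiol as a steroid and is a subunit of the mitochondrial 3-ketoacyl-ACP reductase. It was 39.1, 39.0 and 36.6 CPM with vehicle, 37.4, 37.6 and 40.6 CPM under anastrozole, 33.99, 35.6 and 37.1 CPM with E2, and 40.1, 40.2 and 38.5 CPM with the combination. All combination libraries lay above all E2 libraries, by 0.15 on the log2 scale (unadjusted p = 0.015, adjusted p = 0.13 by edgeR). This difference was 0.07 with the GC offset (adjusted p = 0.81), and the 1289 genes within 2 percentage points of the GC content of HSD17B8 had a median of 0.08. None of its comparisons was called.

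HSD17B14 (chromosome 19, 49316275 to 49339767, minus strand), described as oxidising estradiol in vitro, had 9 to 31 counts per library, near 1 CPM. Its counts were 13, 14 and 11 with vehicle, 16, 18 and 20 with anastrozole, 9, 31 and 15 with E2, and 21, 9 and 11 with the combination. The anastrozole libraries lay above the vehicle libraries by 0.63 on the log2 scale, with a 95% interval from -0.05 to 1.31 (adjusted p = 0.39 by edgeR). HSD17B11 (chromosome 4, 88257667 to 88312340, minus strand), a lipid droplet enzyme that oxidises androstanediol, had 29 counts in all and 0 to 5 per library: 3, 3 and 0 with vehicle, 5, 1 and 4 with anastrozole, 4, 3 and 0 with E2, and 1, 2 and 3 with the combination. It was under 3 counts in 5 of 12 libraries, and no fold change is given for it.

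**Figure D3:**
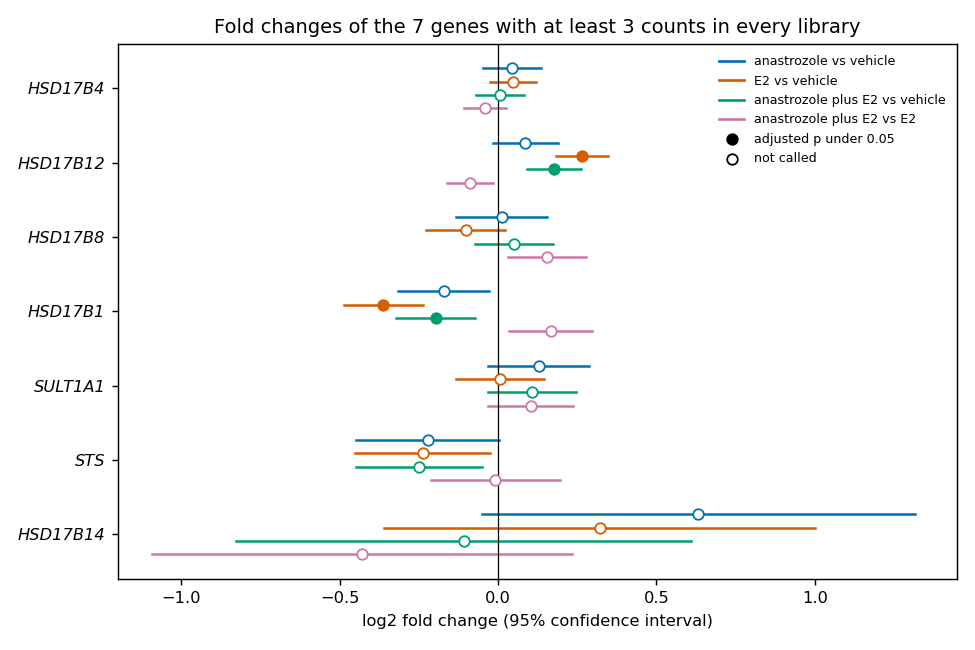
Log2 fold change (horizontal axis) with its 95% confidence interval for the 7 genes with at least 3 counts in every library, in 4 comparisons; filled points passed an adjusted p of 0.05 in edgeR's quasi-likelihood test. In the comparisons shown, only HSD17B12 (0.27 and 0.18) and HSD17B1 (-0.36 and -0.20) have filled points, each with E2 and with anastrozole plus E2 against vehicle. HSD17B12 was also called for anastrozole against E2 (-0.17).

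Read over the 9 genes, the counts of calls were small. With anastrozole against vehicle 0 of 9 were called by edgeR, where 3.67% of all genes were (1.4% higher, 2.27% lower), a share that ran from 0.904% without the vehicle library c to 7.81% without the anastrozole library c; 1 had an unadjusted p under 0.05 (HSD17B1), and 0 were called with the DESeq2 test and with limma-voom. With E2 against vehicle 2 of 9 were called (12% of all genes, and 17.85% of those kept by filterByExpr), 1 higher (6.06%) and 1 lower (5.95%). With the combination against vehicle 2 of 9 were called (5.04% of all genes, and 3.23% without the combination library b or 3.25% without c), the same 2 genes, 1 higher (2.71%) and 1 lower (2.33%). The median log2 fold changes of the 7 detected genes were 0.04, 0.01 and 0.01, against 0 over all genes. Groups did not overlap for 4 of 9 genes with anastrozole (17.7% of all genes), 3 of them higher (8.63%) and 1 lower (9.07%). With E2 3 of 9 did not overlap (25.4%), 2 higher (13%) and 1 lower (12.4%), and with the combination 3 (18.5%), 2 higher (9.66%) and 1 lower (8.83%). The 3 comparisons share their vehicle libraries.

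Between treatments, anastrozole differed from E2 in 1 of 9 genes (1.33% of all genes, 0.62% higher and 0.705% lower; 0.506% without the E2 library b and 1.96% without the anastrozole library c). This was HSD17B12, lower with anastrozole by 0.17 on the log2 scale (SE 0.05, adjusted p = 0.014, edgeR). That call was lost with the DESeq2 test (adjusted p = 0.090), limma-voom (0.155) and the replicate block. It was also lost without the anastrozole library b (-0.19) or the E2 library a (-0.15), b (-0.19) or c (-0.19). Between the combination and E2, 0 of 9 genes were called by edgeR (6.74% of all genes, 3.23% higher and 3.51% lower; 4.19% without the E2 library c and 4.43% without the combination library c), as with the DESeq2 test and limma-voom, while 3 had an unadjusted p under 0.05. These were HSD17B1 (0.17, adjusted p = 0.12), HSD17B12 (-0.09, adjusted p = 0.15) and HSD17B8 (0.15, adjusted p = 0.13), and with the GC offset their values were 0.04, -0.00024 and 0.07. Of the 9 genes 5 did not overlap between these groups (21.1% of all genes), 3 higher (10.9%) and 2 lower (10.2%). Between anastrozole and E2 3 did not (13.1%), 2 higher (5.89%) and 1 lower (7.21%). Among the markers of cell types, 1 luminal and 1 stromal marker were called higher with the combination than with E2. With anastrozole against E2, 1 of 8 luminal markers was called lower (4 at an unadjusted p under 0.05). The part of these markers in these values was not tested. Between the combination and anastrozole 0 were called by edgeR, the DESeq2 test and limma-voom (2.9% of all genes by edgeR, 1.71% higher and 1.18% lower), with 1 at an unadjusted p under 0.05 (HSD17B14, -0.74, adjusted p = 0.27). The share of all genes called there ran from 1.11% without the combination library c to 8.07% without the anastrozole library c. HSD17B12 was called in that comparison with the GC offset (0.15, adjusted p = 0.0085), and it was the 1 gene of 9 without overlap (higher; 16.9% of all genes, 8.96% higher and 7.92% lower).

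Whether anastrozole acted differently in the presence of E2 was tested as an interaction over 12 libraries. It was called for 1 of 9 genes (10.9% of all genes, 5.93% higher and 4.93% lower): for HSD17B1 the effect of anastrozole was higher with E2 than without it by 0.34 on the log2 scale (SE 0.10, adjusted p = 0.011, edgeR). The 2 differences behind it, -0.17 for anastrozole alone and 0.17 for anastrozole added to E2, were not called themselves. For HSD17B12 the interaction was -0.18 (SE 0.06, adjusted p = 0.0501), just outside the threshold; it passed in 2 of 8 alternatives and in 4 of 12 fits without 1 library. With the GC offset these values were 0.08 (adjusted p = 0.85) and -0.02 (adjusted p = 1), and neither was called. The interaction of HSD17B1 was also lost with limma-voom (adjusted p = 0.0545) and without the vehicle library c (0.27), the E2 library c (0.30) or the combination library c (0.30).

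**Figure D4:**
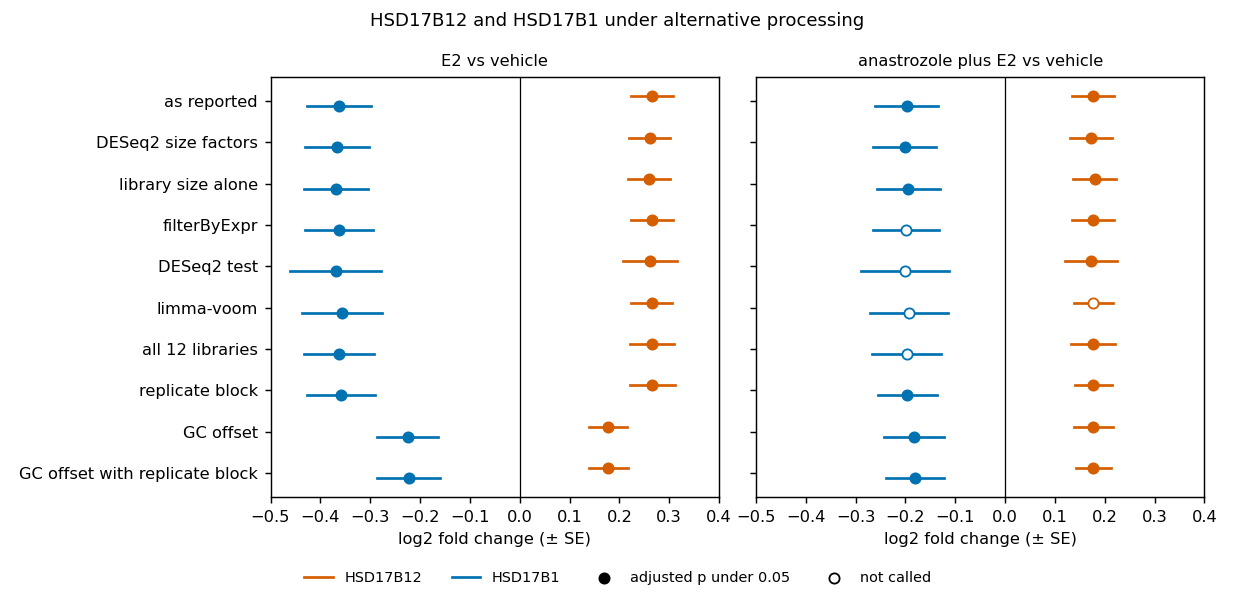
Log2 fold change (± SE) of HSD17B12 and HSD17B1 with E2 (left) and with anastrozole plus E2 (right) against vehicle, as reported and in 9 alternatives; filled points passed an adjusted p of 0.05. All points for E2 are filled, and the smallest differences, 0.18 and -0.22, are those with an offset for GC content.

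Genes of hydroxylation and conjugation were listed too, and not all of them act on estradiol itself. Of these 13 genes 10 had counts and 2 exceeded a mean of 1 CPM, CYP1B1 and NQO1. By edgeR 2 rose and 0 fell with E2, 1 rose and 0 fell with the combination, and 0 were called with anastrozole (2 at an unadjusted p under 0.05). The shares of all genes called higher were 6.06% with E2, 2.71% with the combination and 1.4% with anastrozole. CYP1B1, which hydroxylates estradiol to catechol estrogens, was 78.5, 83.3 and 82.8 CPM with vehicle, 88.7, 86.8 and 89.0 CPM under anastrozole, 109.1, 106.5 and 106.0 CPM with E2, and 93.6, 100.2 and 92.9 CPM with the combination. The E2 libraries lay above those of the other 3 groups, and the vehicle libraries below them. CYP1B1 rose with E2 by 0.39 on the log2 scale (SE 0.05, adjusted p = 1.2e-15, edgeR) and with the combination by 0.23 (SE 0.05, adjusted p = 8.1e-05). Against E2, the log2 fold change of CYP1B1 was -0.27 for anastrozole (adjusted p = 6.3e-06) and -0.17 for the combination (adjusted p = 0.0017). These 2 values were fitted without an offset for GC content. For the combination against E2, fold changes over all genes followed GC content (rho 0.694), and 1424 calls became 164 with that offset.

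With the GC offset the difference of CYP1B1 between E2 and vehicle was 0.35 (adjusted p = 3.8e-14). Both its E2 call and its combination call against vehicle were kept in all 9 alternatives and in 6 of 6 fits without 1 library. GSTP1, a glutathione transferase, had 4 counts over the 3 vehicle libraries and 27 over the 3 E2 libraries; it rose with E2 by a fitted 2.45 on the log2 scale (adjusted p = 0.011), a call that rests on these few counts and was lost without the E2 library b or c or the vehicle library a or b (1.89 to 3.69). CYP1A1 had 27 to 54 counts per group and was not called.

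**Figure D5:**
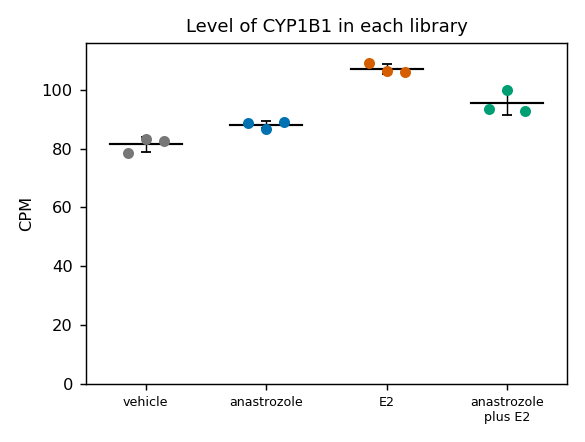
Level (CPM, axis from 0) of CYP1B1 in the 3 libraries of each group, with the group mean (line) and SD (bar). The E2 libraries (106.0 to 109.1 CPM) lie above all others, and the vehicle libraries (78.5 to 83.3 CPM) below all others.

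Of 11 other 17β-hydroxysteroid and ketosteroid enzymes, all had counts and 8 exceeded a mean of 1 CPM. By edgeR 0 rose and 1 fell with anastrozole, and 0 rose and 1 fell with E2. None was called with the combination (2 at an unadjusted p under 0.05). The shares of all genes called lower were 2.27% with anastrozole and 5.95% with E2. HSD17B7, which reduces estrone and acts in cholesterol synthesis, was 36.3, 30.9 and 33.8 CPM with vehicle and 31.9, 26.3 and 24.9 CPM with anastrozole (log2 fold change -0.27, adjusted p = 0.031, edgeR). The call was lost with filterByExpr, the DESeq2 test and limma-voom, and without the anastrozole library b (-0.24) or c (-0.20) or the vehicle library a (-0.22) or c (-0.27). HSD17B10, a mitochondrial enzyme that oxidises estradiol, fell with E2 by 0.19 on the log2 scale (adjusted p = 0.0045), and with the GC offset that difference was -0.11 and not called, as also without the E2 library b or c or the vehicle library a (-0.25 to -0.15). HSD17B2, the main oxidative enzyme in many tissues, had 2 to 11 counts per group, and AKR1C3, which makes testosterone from androstenedione, stood at 0.91 to 2.22 CPM.

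Of the 12 genes that act beside HSD17B12 in fatty acid elongation all exceeded 1 CPM. With E2 0 of them were called by edgeR (4 at an unadjusted p under 0.05, median log2 fold change 0.09), and ELOVL5 alone was called with the combination, lower by 0.11 (adjusted p = 0.020), a call lost without the combination library a or b or the vehicle library b or c (-0.14 to -0.10). Of 11 genes of peroxisomal β-oxidation, the pathway of HSD17B4, 0 rose and 3 fell with E2 (median -0.09), and 1 rose and 2 fell with the combination. Over all genes 6.06% were called higher and 5.95% lower with E2, and 2.71% higher and 2.33% lower with the combination. ECH1, an isomerase of fatty acid oxidation, was 155.7, 145.8 and 149.8 CPM with vehicle and 126.6, 126.1 and 132.7 CPM with E2 (log2 fold change -0.23, adjusted p = 6.9e-07, edgeR), and with the GC offset it was still called (-0.15). ACOX2, an oxidase of branched-chain acyl-CoA, was higher with the combination by 0.38 (adjusted p = 0.0080), and without the vehicle library b by 0.32 and not called.

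Of 7 genes of mitochondrial fatty acid synthesis, the pathway of HSD17B8, 0 were called by edgeR in the 3 comparisons with vehicle, while 1, 2 and 0 had an unadjusted p under 0.05. Among 9 lipid droplet genes, HILPDA, a lipid droplet protein that inhibits lipolysis, rose in all 3 comparisons with vehicle, by 0.28 with anastrozole (adjusted p = 1.1e-05), 0.29 with E2 (adjusted p = 1.7e-10) and 0.23 with the combination (adjusted p = 6.1e-06). PNPLA2, a triglyceride lipase, and PLIN3, a droplet coat protein, fell with E2 by 0.21 and 0.18, and neither was called with the GC offset (-0.07 and -0.10). The call of PNPLA2 was also lost without the vehicle library c (-0.16) and that of PLIN3 without the E2 library c or the vehicle library a (-0.21 to -0.13 over such fits). Of 10 transporters of steroid conjugates, 4 exceeded 1 CPM. SLCO4A1, an organic anion transporter, was 5.26, 5.63 and 6.15 CPM with vehicle and 8.60, 8.80 and 8.12 CPM with E2, a log2 fold change of 0.58 (SE 0.14, adjusted p = 6.9e-04, edgeR), and it was the only call of that list against vehicle, with a log2 fold change of 0.48 with the combination (adjusted p = 0.013), which was lost without the combination library a or b or the vehicle library a (0.37 to 0.62).

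The genes whose pattern was most like those of HSD17B1 and HSD17B12 were found among 14209 genes over 12 libraries. For HSD17B1 they were TRMT2A, PLXNB1 and PP14571, with mean absolute log2 differences of 0.050, 0.052 and 0.054 per library. For HSD17B12 they were KLF6, FAM220A and BOD1, at 0.034, 0.035 and 0.035. PLXNB1, a semaphorin receptor, was 173.5, 162.3 and 171.1 CPM with vehicle and 132.6, 129.9 and 126.5 CPM with E2. KLF6, a zinc finger transcription factor, was 73.0, 77.7 and 76.7 CPM with vehicle and 86.6, 90.9 and 91.4 CPM with E2.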

How the data were processed

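RNA was sequenced from 12 samples of T47D cells, 3 in each of 4 groups. According to the submitters' processing notes and methods, reads were aligned to hg19 with TopHat2 2.0.14 and Bowtie2 2.2.6 and counted per gene with HTSeq. The authors deposited raw counts per gene, not normalized. The strand setting and annotation used for counting are not given in the sources used here. Of 25370 genes, 21132 had a count in at least 1 library and were tested, and 4238 had none. The 5 summary lines for unassigned reads stayed out of library sizes; reads on no counted feature were a median of 59.4% of all reads. The labels name polyA RNA as the molecule and total RNA in the library protocol. Libraries held 9914253 to 17009776 gene counts. A gene was called below detection under 3 counts in a library, which was 0.177 to 0.303 CPM, and this floor covers counting error only. CPM were scaled by TMM.

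Each comparison was fitted on its 6 libraries, and the interaction on all 12, with edgeR 4.0.16 (robust quasi-likelihood test, Benjamini-Hochberg adjustment over all genes tested, threshold 0.05, 2-sided) in R 4.3.3. Alternatives were DESeq2 1.42.0 (size factors, test), library size alone, filterByExpr, limma 3.58.1 (voom), all 12 libraries in a single fit, the replicate letter as a block and each library left out. Offsets for GC content (fitted per library by lowess, span 0.5, to genes whose mean reached 3 on the log2 CPM scale) were chosen after seeing the data. The test and the offset were checked on simulated counts. Nothing in the labels says that the 3 samples of a group came from separate cultures, so p-values measure the spread between these samples only.

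The members and the gene lists were chosen with earlier results of these data known. All members are named; a list names at most 4 genes, taken first from those past the threshold in any comparison and then from the rest of the list, with TFF1 outside this rule, and SULT1A2, SULT1A3 and SULT1A4 are named as copies of SULT1A1 sequence. For each member called against vehicle, the 3 genes nearest to it over 12 libraries are named, by the mean absolute difference of log2(CPM + 0.5) from the vehicle mean among genes with a mean of at least 1 CPM. Transcript length, GC content and positions came from GENCODE release 44 mapped to GRCh37, whose main chromosomes hg19 shares; 21539 genes were matched by symbol, 1498 by an older symbol and 2333 not at all. Some genes of the lists are not reported here.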

Additional observations from a re-analysis of the deposited data

Results flagged for a closer look

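The effect of anastrozole in the presence of E2 minus its effect alone passed the interaction test (edgeR's quasi-likelihood test over 12 libraries, adjusted p under 0.05) for 1 of the 9 enzymes, HSD17B1, at 0.34 on the log2 scale (adjusted p = 0.011), the mean level being below vehicle with anastrozole alone and above E2 with both. With an offset for GC content the value was 0.08 (adjusted p = 0.85); the cause was not tested.

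The same test was passed by 10.9% of all genes (2295, and 499 with the GC offset), by other genes of the lists, and by markers of cell types (2 of 8 luminal and 1 of 7 stromal markers higher, 1 of 5 adipocyte and 1 of 4 immune markers lower), whose part in the result was not tested. It was positive for ACOX2 (0.46), CTSD (0.35), FDXR (0.35), PNPLA2 (0.33), TECR (0.26), HSD17B10 (0.24), ESRRA (0.22), PLIN3 (0.21), GREB1 (0.20), PTGES (0.20), NDUFAB1 (0.20) and ECH1 (0.19). It was negative for GSTP1 (-2.76, on few counts), HILPDA (-0.34) and CYP1B1 (-0.28). With the GC offset CYP1B1 (-0.20), HILPDA (-0.37) and NDUFAB1 (0.21) were still called, the others named here were not, and ESRRA was -0.033.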

How the results depend on the processing

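The E2 calls of HSD17B1 and HSD17B12 were kept in 9 alternatives and in 6 of 6 fits without 1 library. Of the 9 genes, the number called with anastrozole plus E2 against vehicle, 2, was 1 with filterByExpr, with the DESeq2 test and in the fit on all 12 libraries, 0 with limma-voom, and 1 to 2 without 1 library. For anastrozole against E2 the number, 1, was 0 with the DESeq2 test, limma-voom and the replicate block, and 0 to 1 without 1 library. For the combination against anastrozole, 0, it was 1 with the GC offset, alone and with the replicate block (HSD17B12, 0.15, adjusted p = 0.0085 with the offset alone). For the interaction, 1, it was 2 with DESeq2 size factors and with filterByExpr, 0 with limma-voom and with the GC offset, alone or with the replicate block, and 0 to 2 without 1 library. For E2 against vehicle it was 2 to 3 without 1 library. The direction of a called value turned under the GC offset, alone and with the replicate block, for CTSD with E2 (0.033 in both, against -0.10) and for the interaction of ESRRA (-0.033 in both, against 0.22). Uncalled values of members turned too with that offset alone: for HSD17B4 with E2 (-0.0071 against 0.05), the combination against E2 (0.01 against -0.04) and the interaction (0.0089 against -0.09), for HSD17B8 in the combination against anastrozole (-0.04 against 0.04) and the interaction (-0.02 against 0.14), and for STS in the combination against E2 (0.03 against -0.009). The causes were not tested. Correlations of same-letter deviations ran from -0.195 to 0.184. They were 0.139, 0.0673 and 0.0346 for the combination against vehicle, and -0.0528, -0.0795 and -0.0586 for E2 against vehicle (letters a, b and c). No correlations between different letters served as a reference, so these values cannot decide whether the letters pair the libraries.

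Over all genes, calls with anastrozole numbered 776, with filterByExpr 419, the DESeq2 test 238, limma-voom 15, all 12 libraries 1229, and 191 to 1651 without 1 library. With E2 they were 2537, and 1407, 1379 and 1529 with the DESeq2 test, limma-voom and the GC offset. With the combination they were 1065, and 476, 347 and 1439 with the DESeq2 test, limma-voom and the replicate block. Without 1 library the combination gave 682 to 964. Anastrozole against E2 gave 280, and 160 with filterByExpr, 110 with the DESeq2 test, 70 with limma-voom, 180 with the replicate block, 540 with the GC offset and 107 to 414 without 1 library. The combination against E2 gave 1424, and 638, 451, 824 and 164 with the DESeq2 test, limma-voom, all 12 libraries and the GC offset, and 885 to 1176 without 1 library. The combination against anastrozole gave 612, and 295, 222 and 90 with filterByExpr, the DESeq2 test and limma-voom, and 234 to 1706 without 1 library. The interaction gave 2295, and 499 with the GC offset. With both the GC offset and the replicate block, E2 gave 1455, the combination 1619, anastrozole against E2 450, the combination against E2 168 and the interaction 602. Depth limits CYP19A1 and HSD17B11, which cannot be compared between groups here.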
